A study of Mus musculus with 6 samples.

Results

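The 4 miRNA entries described here, mmu-miR-22, mmu-miR-22*, mmu-miR-26a and mmu-miR-26b (written without the species prefix below), were taken by name from the 698 mature miRNAs listed in the tables of both genotypes, and all 4 were found and had enough reads to be tested. Small-RNA sequencing was done on left ventricles, 3 from wild-type mice (WT) and 3 from mice with 1 copy of the R719W mutation in Myh6 (genotype aMHC719/+ in the labels, R719W here). Myh6 encodes the α-myosin heavy chain, and the labels present R719W mice as a model of hypertrophic cardiomyopathy (HCM), in which the heart muscle thickens. Cyclosporin, a drug that blocks the phosphatase calcineurin, had been given to all 6 mice, WT included, for 3 weeks. The genotypes are therefore compared under the drug, and no untreated mice were analysed here. The sources used here do not state the age of the mice. The libraries are labelled as biological replicates, 1 per ventricle.

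miRNAs are short RNAs that guide silencing proteins to messenger RNAs that pair with the seed, bases 2 to 8 of the miRNA, so entries with one seed share most of their potential targets. Each is cut from 1 arm of a hairpin, and the asterisk in these tables marks the arm that usually accumulates less. miR-22 is abundant in heart and skeletal muscle, and mice that lack it show a blunted growth response of the heart to hypertrophic stimuli. miR-26a and miR-26b are broadly expressed and are made from introns of genes for small phosphatases that act on RNA polymerase II. In rodent cardiomyocytes, miR-26 has been reported to restrain hypertrophic growth, in part by repressing the cardiac transcription factor Gata4.

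The mature sequences show which entries can act on the same sites. They are RefSeq's, on GRCm38.p6, match the deposited sequences base for base apart from U for T, and are printed 5′ to 3′ with the seed in capitals.
miR-22 (miR-22-3p): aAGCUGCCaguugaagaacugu
miR-22* (miR-22-5p): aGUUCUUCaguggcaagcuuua
miR-26a (miR-26a-5p): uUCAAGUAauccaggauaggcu
miR-26b (miR-26b-5p): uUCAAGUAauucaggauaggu
miR-26a and miR-26b carried the same seed, UCAAGUA, and no other listed entry shared it. No other listed entry shared the seed of miR-22 or of miR-22*. Counted from the 5′ end, miR-26b differed from miR-26a by C11U and C21U and was 21 rather than 22 bases long. The sources used here do not state how reads close to both sequences were divided.

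The hairpins differ in how many genes can feed each entry. In the RefSeq hairpins below, capitals mark the annotated mature arms.
Mir22: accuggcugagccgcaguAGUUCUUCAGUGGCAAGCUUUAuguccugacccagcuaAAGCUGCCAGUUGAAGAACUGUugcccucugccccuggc
Mir26a-1: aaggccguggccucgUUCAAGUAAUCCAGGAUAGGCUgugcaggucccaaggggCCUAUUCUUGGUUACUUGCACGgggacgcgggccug
Mir26a-2: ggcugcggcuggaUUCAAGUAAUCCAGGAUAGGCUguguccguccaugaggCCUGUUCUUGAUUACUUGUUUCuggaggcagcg
Mir26b: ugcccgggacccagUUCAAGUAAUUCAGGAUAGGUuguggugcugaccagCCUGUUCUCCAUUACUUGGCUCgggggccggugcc
Mir22 lies on chr11:75463716-75463810 (GRCm38, plus strand), within an exon of the noncoding gene Mir22hg and of 1 noncoding transcript of the overlapping gene Tlcd2. Mir26b lies on chr1:74394310-74394394 (plus strand), in an intron of Ctdsp1. The mature miR-26a is identical in both of its hairpins, so its reads cannot be assigned to either. Mir26a-1 lies on chr9:119031796-119031885 (plus strand), in an intron of Ctdspl. Mir26a-2 lies on chr10:126995530-126995613 (plus strand), in Ctdsp2, in an intron of 1 GENCODE transcript and partly within an exon of 2 others.

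Between 765425 and 1192020 reads fell on listed miRNAs per library. Levels below are CPM (reads scaled to a common library total) after TMM, a method that sets libraries to one scale from the bulk of their miRNAs. In a library without a read of a miRNA, its level could still reach 3 reads, or 2.40 to 4.06 CPM on this scale, a limit that covers counting error only. Cardiac muscle miRNAs dominated every library: the summed deposited CPM of miR-208a, miR-499, miR-1 and miR-133a was 560679 to 652746 in WT and 486387 to 585103 in R719W. Most of this sum was miR-1, with 344651 to 656677 reads per library, while miR-133a had only 168 to 288. The liver miRNA miR-122 had at most 1 read in a library. Of the neuronal miRNAs, miR-124 had 0 reads in all 6 libraries and miR-9 had 7 to 11 per library. The epithelial markers (miR-200a, miR-200b, miR-200c, miR-141 and miR-429) summed to 3.36 to 11.8 deposited CPM in WT and 5.81 to 9.24 in R719W. Fibroblast markers (miR-199a-5p, miR-199b*, miR-214 and miR-21) summed to 342 to 454 deposited CPM in WT and 1759 to 3260 in R719W. By the edgeR test described below, 3 of these 4 rose, beside 12.7% of all tested miRNAs called higher. In whole tissue, fewer cells of a type and less RNA per cell cannot be told apart.

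miR-26b was lower in R719W, and the other 3 entries, though also lower on this scale, did not pass the test. miR-26b fell by 36.6%, from a mean of 3713 ± 273 to 2356 ± 119 TMM-normalised CPM (SD, n = 3 per genotype). The differences from WT were −33.9% for miR-22*, −17.2% for miR-26a and −12.8% for miR-22, each with an adjusted p above 0.05. edgeR's quasi-likelihood test, adjusted by Benjamini-Hochberg over all 181 miRNAs tested, called 19.9% of them at an adjusted p of 0.05, 7.18% lower and 12.7% higher in R719W. Of the 4 entries it called 1, lower. For 3 of the 4 entries, all but miR-26a, the libraries of the genotypes did not overlap on the TMM scale, and 40.9% of all tested miRNAs showed no overlap.

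**Figure D1:**
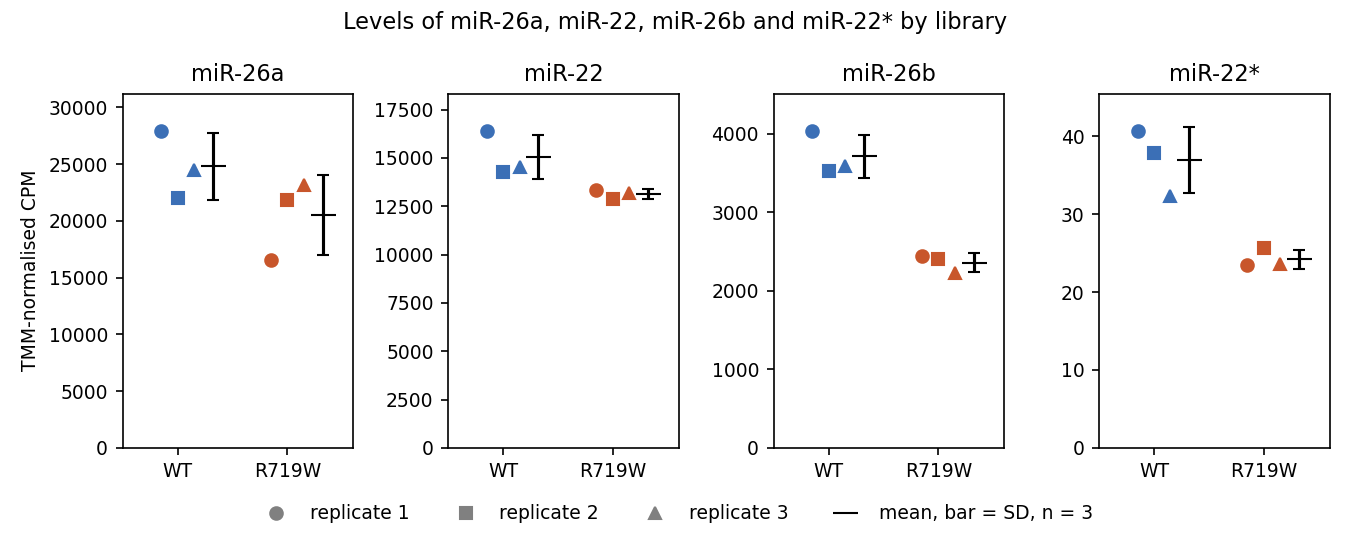
TMM-normalised CPM (vertical axes, linear from 0) of each entry in the 3 WT and 3 R719W libraries; symbols are replicates, and black lines show the mean with the SD (n = 3). The R719W libraries lie below all WT libraries for miR-22, miR-26b and miR-22*, and overlap them for miR-26a.

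mmu-miR-26a was the most abundant of the 4, with 20584, 18020 and 24233 reads in WT replicates 1, 2 and 3. R719W replicates 1, 2 and 3 held 16234, 27253 and 24560 reads. These correspond to 27869, 21987 and 24499 TMM-normalised CPM in WT and to 16544, 21812 and 23182 in R719W. R719W replicate 1 was the lowest of the 6 libraries, and the other R719W libraries lay close to or within the WT range. The genotype means were 24785 ± 2951 and 20513 ± 3505 TMM-normalised CPM (SD, n = 3). The log2 fold change was −0.27 (SE 0.20, 95% interval −0.72 to 0.17), which did not pass (edgeR adjusted p = 0.308). The log2 fold change was −0.18, −0.43 and −0.40 without R719W replicate 1, 2 or 3, and −0.03 with library totals alone.

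mmu-miR-26b, which has the seed of miR-26a, was read 2974, 2891 and 3547 times in WT replicates 1, 2 and 3. It was read 2399, 3001 and 2353 times in R719W replicates 1, 2 and 3. On the TMM scale the WT libraries stood at 4027, 3527 and 3586 CPM and the R719W libraries at 2445, 2402 and 2221. Every R719W library lay below every WT library, and the same held for the deposited CPM, which ranged from 2976 to 3777 in WT and from 2323 to 2718 in R719W. The log2 fold change was −0.66 (SE 0.17, 95% interval −1.03 to −0.28; edgeR adjusted p = 0.0258), which was the 18th smallest p of all miRNAs tested. The call was lost with library totals in place of TMM (log2 fold change −0.45, adjusted p = 0.225), and over all 15 alternatives the adjusted p ranged from 0.00255 to 0.240. It was also lost without WT replicate 1, 2 or 3 or R719W replicate 3 (adjusted p = 0.111, 0.0555, 0.107 and 0.0905), while the log2 fold change stayed between −0.78 and −0.66 in all 6 fits without 1 library.

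mmu-miR-22, the arm that accumulates from its hairpin, was read 12089, 11716 and 14353 times in WT replicates 1, 2 and 3. R719W replicates 1, 2 and 3 held 13090, 16089 and 13972 reads. The TMM-normalised CPM were 16367, 14295 and 14511 in WT and 13340, 12877 and 13188 in R719W. The R719W libraries lay just below the lowest WT library, and they were close to one another, with an SD of 236 around a mean of 13135 (n = 3). In WT the mean was 15058 ± 1139 (SD, n = 3). The log2 fold change was −0.20 (SE 0.17, 95% interval −0.57 to 0.18; edgeR adjusted p = 0.383). The sign rested on the scaling: with library totals alone the log2 fold change was 0.02, and the deposited CPM overlapped, at 12041 to 15307 in WT and 12673 to 16137 in R719W.

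mmu-miR-22*, the other arm, was rare, with 30, 31 and 32 reads in WT replicates 1, 2 and 3 and 23, 32 and 25 in R719W replicates 1, 2 and 3. These made 40.6, 37.8 and 32.4 TMM-normalised CPM in WT and 23.4, 25.6 and 23.6 in R719W. All R719W libraries were below all WT libraries on this scale, but on the deposited CPM scale R719W replicates 2 and 3, at 27.4 and 28.9, were above WT replicate 3, at 26.8. The means were 36.9 ± 4.2 and 24.2 ± 1.21 TMM-normalised CPM (SD, n = 3). The log2 fold change was −0.60 (SE 0.23, 95% interval −1.12 to −0.07), and the adjusted p by edgeR was 0.0999.

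The spread between libraries was set against the spread that counting alone would give. For miR-22* the coefficient of variation over 3 libraries was 11.4% in WT and 5.0% in R719W, below the 18.0% and 19.5% that its read numbers alone would give. Differences among the libraries of one genotype were therefore not detectable beyond counting error for this arm. For the abundant entries the spread was well above counting error in WT: 11.9% against 0.694% for miR-26a, 7.57% against 0.891% for miR-22 and 7.35% against 1.79% for miR-26b. In R719W, miR-26a varied most (17.1%), and miR-22 varied by only 1.80% against 0.837% from counting.

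**Figure D2:**
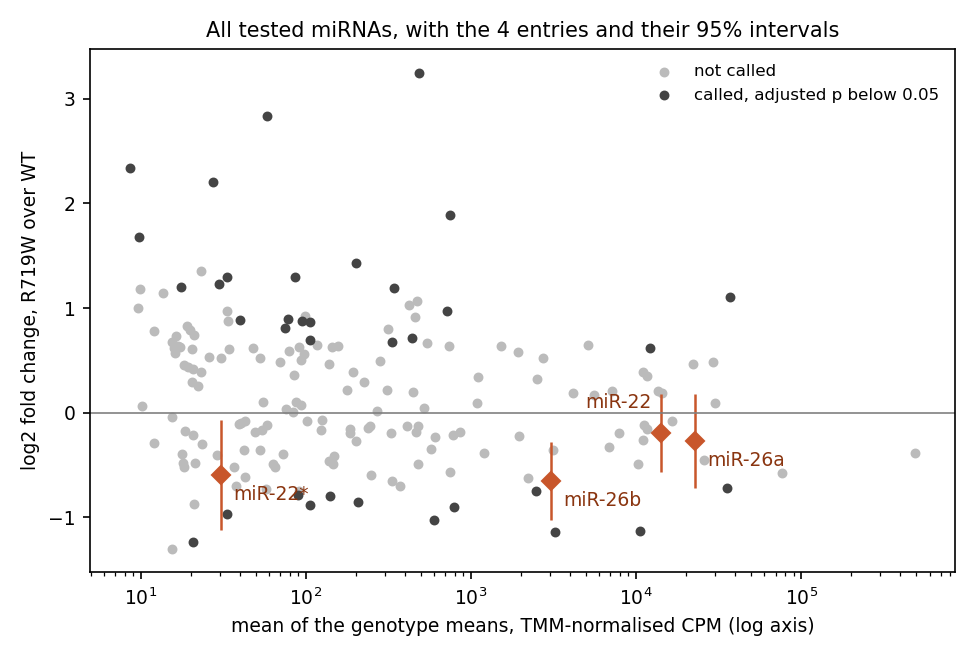
log2 fold change (R719W over WT) of each of the 181 tested miRNAs against its level (TMM-normalised CPM, log axis); dark points were called, and orange diamonds with 95% intervals are the 4 entries. All 4 entries lie below 0, and the intervals of miR-22 and miR-26a cross 0.

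Against all miRNAs tested, the entries sat on the lower side of the fold changes. The 4 log2 fold changes were all negative, with a median of −0.44, while 82 of the 181 tested miRNAs (45.3%) were negative and their median was 0.10. Below miR-26b lay 18 miRNAs with a more negative log2 fold change, below miR-22* 22, below miR-26a 50 and below miR-22 57. Another scaling moved the zero point for all miRNAs: relative to TMM, log2 fold changes shifted by a median of −0.11 with DESeq2's size factors and by 0.21 with library totals alone.

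Ratios of reads between entries within one library need no scaling between libraries. The 3 such ratios were compared between genotypes, together with the share of a library's reads that the 4 entries took. That share, unlike the ratios, depends on the library total. All 4 measures were compared by two-sided exact permutation tests, whose smallest possible p with 3 libraries per genotype is 0.1. miR-22 exceeded miR-22* by 403, 378 and 449 times in WT replicates 1, 2 and 3 and by 569, 503 and 559 times in R719W replicates 1, 2 and 3. Every R719W ratio was above every WT ratio. The mean of the log2 ratios was 0.41 higher in R719W, or 1.33-fold (exact permutation p = 0.1, the smallest possible; 0.4 after Benjamini-Hochberg adjustment over the 4 measures). Expressed as a share of the hairpin's reads, miR-22* made up 0.248%, 0.264% and 0.222% in WT and 0.175%, 0.198% and 0.179% in R719W. Each share rests on so few reads that the exact 95% intervals overlapped, from 0.167% to 0.353% in WT replicate 1 and from 0.111% to 0.263% in R719W replicate 1.

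The ratio of miR-26a to miR-26b was 6.92, 6.23 and 6.83 in WT replicates 1, 2 and 3. In R719W it was 6.77, 9.08 and 10.4 in replicates 1, 2 and 3, so replicate 1 lay within the WT range and the other two above it. The log2 ratio was 0.37 higher in R719W (exact permutation p = 0.3, adjusted 0.6). Without R719W replicate 1 the difference was 0.55 (exact permutation p = 0.1, the smallest possible), and without R719W replicate 3 it was 0.24 (exact permutation p = 0.3). As a share of the reads with this seed, miR-26b made up 12.6% (exact 95% interval 12.2% to 13.1%), 13.8% (13.4% to 14.3%) and 12.8% (12.4% to 13.2%) in WT replicates 1, 2 and 3. The shares were 12.9% (12.4% to 13.4%), 9.92% (9.58% to 10.3%) and 8.74% (8.41% to 9.09%) in R719W replicates 1, 2 and 3. In R719W replicate 1 the share of miR-26b lay within the WT range. Its miR-26a was the lowest of the 6 libraries on the TMM scale. Its miR-26b, at 2445 CPM, was below WT but not below R719W replicates 2 and 3, at 2402 and 2221.

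Set against miR-22 rather than miR-26a, miR-26b separated the genotypes in all libraries, a ratio chosen after its values were seen and therefore given with no test. Per 100 reads of miR-22 there were 24.6, 24.7 and 24.7 reads of miR-26b in WT replicates 1, 2 and 3. There were 18.3, 18.7 and 16.8 in R719W replicates 1, 2 and 3. All 3 R719W libraries, replicate 1 included, lay below the WT libraries. The SD of the WT ratios, 0.057 (n = 3), was smaller than the standard error from counting alone in any WT library (0.463 to 0.512), so it understates their error.

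The ratio of miR-22 to miR-26a did not separate the genotypes. It was 0.587, 0.650 and 0.592 in WT replicates 1, 2 and 3 and 0.806, 0.590 and 0.569 in R719W replicates 1, 2 and 3. Only R719W replicate 1, with its low miR-26a, stood above WT (exact permutation p = 0.9, adjusted 0.9), and without it the difference in the log2 ratio turned from 0.09 to −0.07. Together the 4 entries took 4.06% ± 0.451 of the reads in WT and 3.92% ± 0.827 in R719W (SD, n = 3), from 3.07% in R719W replicate 1 to 4.72% in R719W replicate 3 (exact permutation p = 0.8, adjusted 0.9). The exact 95% intervals of these extremes were 3.04% to 3.11% and 4.68% to 4.77%.

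**Figure D3:**
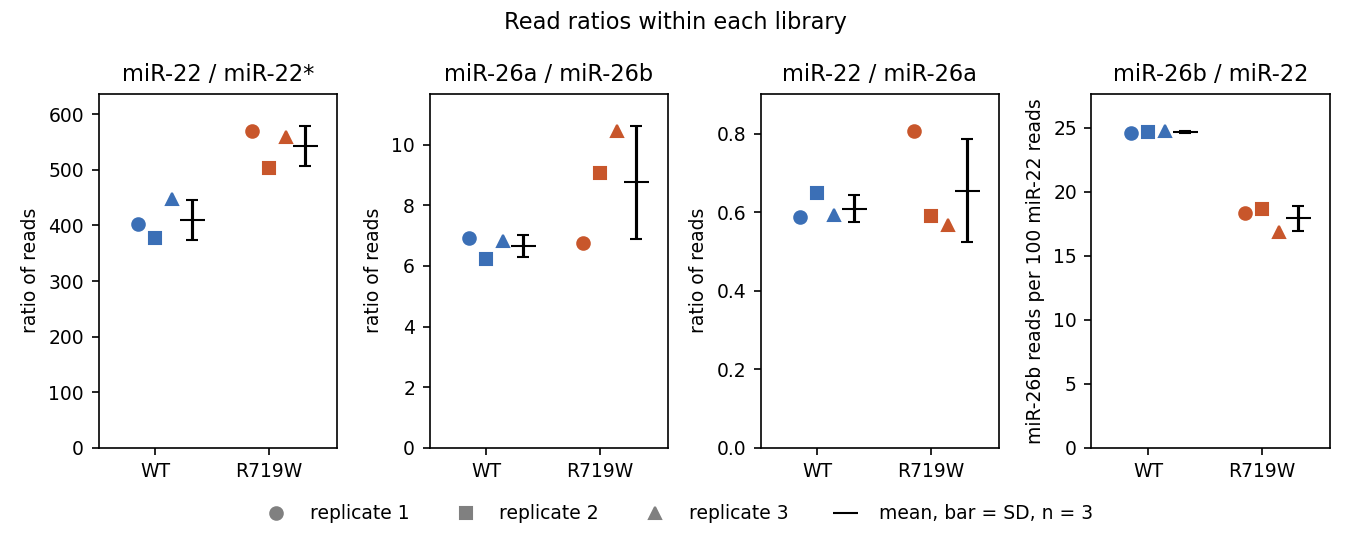
Ratios of reads within each library (vertical axes, linear from 0; the right panel gives miR-26b reads per 100 miR-22 reads); symbols are replicates, and black lines show the mean with the SD (n = 3). The genotypes are apart for miR-22 over miR-22* and for miR-26b over miR-22, and R719W replicate 1 stands apart from R719W replicates 2 and 3 in both ratios with miR-26a.

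The order of the levels was the same in all 6 libraries: miR-26a, miR-22, miR-26b, then miR-22*. Ligation and amplification favour some sequences over others, so this order describes reads and not molecules. By mean log2 level over the 6 libraries, miR-26a took position 8, miR-22 position 11, miR-26b position 29 and miR-22* position 137 of the 181 tested. Next above miR-26a were let-7g and miR-143, each higher than it in 4 of 6 libraries, and next below were let-7f and miR-29a, each higher in 1, so these neighbours were not parted from it in every library. For miR-22, let-7f was higher in 6 of 6 libraries and miR-29a in 5, while let-7a and miR-99a, next below, were higher in 1 and 2. miR-26b lay between miR-322 (higher in 5 of 6 libraries) and miR-151-5p (higher in 3) above and miR-30e and let-7b (each higher in 3) below. miR-22* lay among miR-151-3p (higher in 4), miR-199b* (higher in 2), miR-136 (higher in 2) and miR-500 (higher in 3). Of these neighbours, miR-151-3p and miR-30e fell and miR-500 rose (edgeR adjusted p = 0.0258 for each).

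The miRNAs whose log2 levels followed each entry most closely over the 6 libraries are given as a description, since correlation over both genotypes includes their difference. miR-139-5p was the closest to 3 of the entries, with Pearson's r of 0.99 to miR-26b, 0.98 to miR-22* and 0.93 to miR-22. Its level was 1363 ± 101 TMM-normalised CPM in the WT group and 1040 ± 41.7 in the mutant group (SD, n = 3), a log2 fold change of −0.39 (SE 0.17; edgeR adjusted p = 0.119). After it came miR-185 and miR-30e* for miR-26b (r of 0.98 and 0.97), miR-150 and miR-30e* for miR-22* (both 0.94), and miR-29c and miR-150 for miR-22 (0.90 and 0.88). miR-26a had other companions, miR-30c (r of 0.96), miR-149 (0.95) and miR-126-3p (0.95), each with its lowest level in R719W replicate 1. Among the entries themselves, miR-26b followed miR-22* (0.96) and miR-22 (0.91) more closely than it followed miR-26a (0.61).

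miR-22 and miR-26 are known to act on heart growth in opposite directions, and other miRNAs of each kind are set beside them. Both lists were drawn up with earlier results of these data known, so they are described and not tested as sets. Of 10 miRNAs known to promote growth of cardiomyocytes, as miR-22 does, 9 were tested: 2 rose, 0 fell and 7 did not pass edgeR, with a median log2 fold change of 0.58, beside 12.7% higher, 7.18% lower and a median of 0.10 over all miRNAs tested. The 2 that rose were miR-199a-5p (log2 fold change 2.83, SE 0.26), also made by fibroblasts, and miR-132 (1.30, SE 0.37), which represses the transcription factor Foxo3. The most abundant of this list, miR-208a and miR-23a, did not pass, at −0.58 (SE 0.26) and 0.39 (SE 0.21). miR-22, at −0.20, was lower than the median of this list. Under DESeq2's size factors 1 of the 9 rose, beside 12 of all 181 tested, and with library totals alone 5 rose, beside 34 of 181. Without R719W replicate 1, 5 rose and 1 fell, beside 32 higher and 24 lower of 183.

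Of 10 miRNAs known to restrain growth of cardiomyocytes, as miR-26 does, 7 were tested: 4 fell, 0 rose and 3 did not pass edgeR, with a median log2 fold change of −0.72, beside the same 7.18% lower and 12.7% higher over all miRNAs tested. The fallers were miR-185 (−1.03, SE 0.20), miR-150 (−0.80, SE 0.19), miR-378 (−0.72, SE 0.17) and miR-30a (−0.75, SE 0.22). miR-1, the most abundant of all miRNAs here, did not pass, at −0.38 (SE 0.25). miR-26b, at −0.66, was close to the median of this list, and miR-26a, at −0.27, was nearer to 0. With library totals alone 0 of the 7 fell and 1 rose, beside 3 lower and 34 higher of all 181 tested. Without WT replicate 1, WT replicate 3 or R719W replicate 3, 0 of the list fell by edgeR. Of all miRNAs tested in these fits, 0 of 193, 0 of 186 and 1 of 189 fell, so few falls were called anywhere. These lists, and the next, were drawn up with earlier results of these data known.

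Among 26 miRNAs known to be abundant in the heart, all tested, 2 rose, 4 fell and 20 did not pass, with a median log2 fold change of −0.11 (0.11 with library totals alone), beside 12.7% higher and 7.18% lower over all miRNAs tested. edgeR called 0 of the 26 without WT replicate 1 and without WT replicate 3, where it called only 2.07% and 2.15% of all miRNAs tested. Without R719W replicate 3 it called 1 of the 26 higher and 1 lower, beside 3.70% of all miRNAs tested. let-7i rose (1.11, SE 0.25) and miR-499, from an intron of a myosin gene, fell (−1.14, SE 0.20), while the most abundant, miR-1 and miR-208a, did not pass. Beside the fall of miR-26b, the summed deposited CPM of the cardiomyocyte markers overlapped between genotypes, with 1 of 4 lower by edgeR's test. On the TMM scale all 4 had a negative log2 fold change: −1.14 for miR-499, −0.58 for miR-208a, −0.38 for miR-1 and −0.15 for miR-133a. The smooth muscle markers (22414 to 30057 deposited CPM in WT, 16360 to 28772 in R719W) and endothelial markers (14927 to 20419 in WT, 14440 to 20194 in R719W) overlapped as well, with 0 of 2 called in each by edgeR and 0 at an unadjusted p of 0.05. The leukocyte markers summed to 722 to 1079 deposited CPM in WT and 1149 to 1341 in R719W, above WT in every library. Most of their reads were miR-142-3p, which did not pass (log2 fold change 0.64, edgeR adjusted p = 0.0625). Unlike the fibroblast markers, 0 of the 5 tested rose by edgeR and 2 fell. The part of these cell types in the change of miR-26b was not tested.

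**Figure D4:**
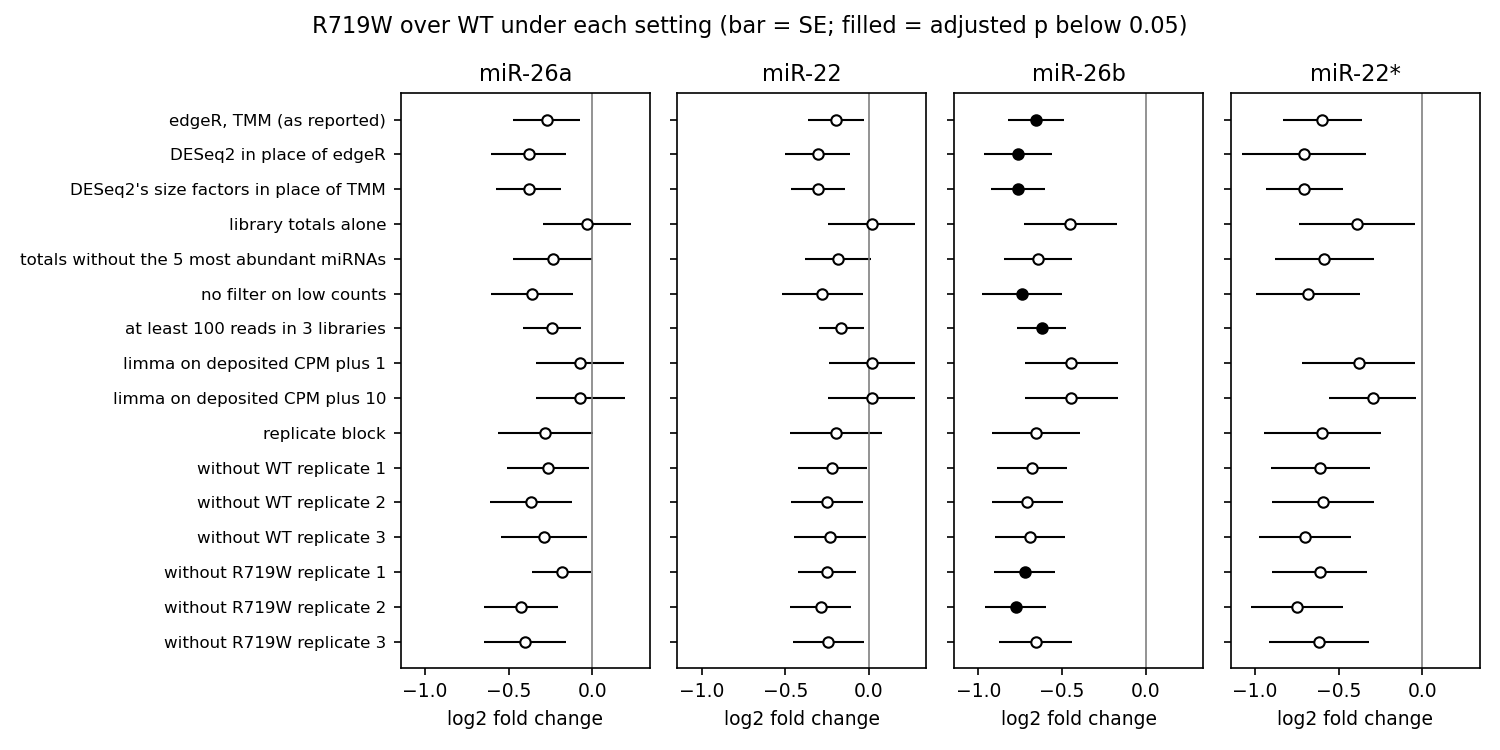
log2 fold change (R719W over WT, horizontal axis) of each entry under the reported test and the alternatives named at the left; bars are standard errors and filled points have an adjusted p below 0.05. miR-26a, miR-26b and miR-22* stay below 0 under every setting drawn, miR-26b is filled in the reported test and 6 of the 15 alternatives, and miR-22 lies at 0.02 with library totals and with limma on the deposited CPM.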

How the data were processed

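Per the labels' protocols, left ventricle RNA was extracted with a miRNA isolation kit, and multiplexed miRNA libraries were made from it. The authors deposited read counts per mature miRNA and library with no normalization, per the file headers, and a normalized value that equals CPM over the listed miRNAs (largest relative gap 4.6e-15). Aligner, mismatches allowed, annotation release and build: not given in the sources used here. Columns were assigned to samples by barcode. The genotypes had no barcode in common, so an effect of the barcodes cannot be told apart from genotype. Reads carry no molecular identifiers.

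The count test was edgeR 4.0.16 in R 4.3.3. Its filterByExpr (minimum count 10, total 15) left 181 of 698 miRNAs, which were scaled by TMM. Genotypes were compared with glmQLFit and glmQLFTest (two-sided), and p-values were adjusted by Benjamini-Hochberg over the 181. The standard error is the absolute log2 fold change over the square root of F. The step was tested on simulated data with as many rises as falls, which does not test the choice of scaling between libraries. Alternatives used DESeq2 1.42.0 and limma 3.58.1 (log2 of deposited CPM plus 1 or 10, with the same filter). Shares have exact (Clopper-Pearson) binomial 95% intervals. Within genotypes, replicates differed beyond sampling noise (chi-square per degree of freedom 32.8 to 283). Host genes are from GENCODE M21.

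The members and lists were chosen with earlier results of these data known. miRNAs were named by rule: the 4 entries, the 2 next above and below each in mean level, the 3 most correlated with each, and per list the 2 called with the smallest p and the 2 most abundant. miR-30a was named in addition, to complete a count.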

Additional observations from a re-analysis of the deposited data

How the results depend on the processing

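Of the 4 entries, miR-26b, miR-22* and miR-26a had a negative log2 fold change in each alternative that tested them (miR-22* was not tested with at least 100 reads in 3 libraries). Its size varied: miR-26a ranged from −0.43 to −0.03 (library totals alone; −0.07 with limma), miR-22* from −0.75 to −0.30 (limma on the deposited CPM plus 10) and miR-26b from −0.78 to −0.44. miR-22 turned to 0.0157 with library totals alone and to 0.0160 with limma on the deposited CPM plus 1 or plus 10. The call of miR-26b was also lost with totals without the 5 most abundant miRNAs (adjusted p = 0.0564) and with limma (0.240 and 0.236). The number of miRNAs called, 36, was 20 with totals without the 5 most abundant miRNAs and 22 with at least 100 reads in 3 libraries, where 101 were tested (21.8% called, against 19.9%). It ranged from 4 to 56 when 1 library was left out: without WT replicates 1, 2 and 3 in turn it was 4, 20 and 4, and without R719W replicates 1, 2 and 3 in turn 56, 40 and 7. Rises and falls were 23 and 13 with TMM, 12 and 15 with DESeq2's size factors, and 34 and 3 with library totals alone.

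Leaving out each library gave a difference in log2 ratio of 0.35 to 0.48 for miR-22 over miR-22*, 0.24 to 0.55 for miR-26a over miR-26b and −0.0722 (without R719W replicate 1) to 0.179 for miR-22 over miR-26a. The share of the 4 entries differed by −0.534 to 0.292 percentage points in these fits, and it was −0.133 with all libraries. As a share of reads without the 5 most abundant miRNAs outside the entries, the difference was −2.06 percentage points (exact permutation p = 0.2). The share of all reads was higher in R719W without WT replicate 1 (0.0205) and without R719W replicate 1 (0.292).

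Same-numbered libraries did not deviate together (correlations of −0.19, −0.39 and 0.01), and no library correlated best with its own number, so the numbers are not taken as pairs. With the replicate number as a block, 30 miRNAs were called, and miR-26b had an adjusted p of 0.0586 at a log2 fold change of −0.66. Read numbers limit miR-22*, as its spread was within counting error.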

Other observations

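The other arm of the miR-26b hairpin, listed as miR-26b*, had 3, 3 and 6 reads in WT replicates 1, 2 and 3 and 1, 10 and 4 in R719W replicates 1, 2 and 3, too few to be tested. Added together, the entries with the seed UCAAGUA came to 28498 ± 3210 TMM-normalised CPM in WT (SD, n = 3), from 25515 to 31895. In R719W they came to 22869 ± 3412 (SD, n = 3), from 18989 to 25403. This sum was chosen after its values were seen and is given with no test.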
